A study of Mus musculus with 15 samples.

Results

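The mRNAs of Ptgs2, Vegfa, Hif1a, Slc2a1 and Hmox1 were examined for crosslink sites of tristetraprolin (TTP) by individual-nucleotide resolution crosslinking and immunoprecipitation (iCLIP), in which UV light fixes a protein to the RNA it touches and each sequenced cDNA marks the nucleotide next to the crosslink. The members were all sense-strand sites inside these 5 genes, which gave 222 of the 162273 sites in 6 lists. The cells were immortalised bone marrow-derived macrophages of C57BL/6 mice that lacked TTP, had been immortalised with hcmyc and mutant hRas, and carried a tet-inducible vector for GFP–TTP or GFP–TTP-AA. TTP-AA has alanines in place of the serines that the kinase MK2 phosphorylates. All cells received doxycycline (1 µg/ml) for 6 h, with no lipopolysaccharide (LPS, 0 h) or with LPS (1 µg/ml) for 1 h or 4 h, and the RNA was captured with a GFP-Nanotrap. In order of LPS time, 2, 4 and 2 libraries came from GFP–TTP cells and 2, 3 and 2 from GFP–TTP-AA cells. Each cell line expressed a transgene from doxycycline, so the amount of TTP did not depend on its own promoter.

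TTP is a zinc finger protein that binds AU-rich elements, runs of AUUUA and related letters in 3′UTRs, and recruits factors that shorten the poly(A) tail and start mRNA decay. MK2 phosphorylates TTP after LPS, which is known to restrain this activity. The 5 genes belong to the inflammatory and hypoxic programmes of macrophages. Hif1a encodes the oxygen-regulated subunit of the transcription factor HIF-1, Vegfa (an angiogenic growth factor) and Slc2a1 (the glucose transporter GLUT1) are among its classic targets, Ptgs2 encodes the inducible cyclooxygenase COX-2 of prostaglandin synthesis, and Hmox1 encodes the heme-degrading enzyme heme oxygenase-1.

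One pooled list was deposited per group, so the values below are sums over the libraries of a group, with no value per library and no spread between replicates. Tests therefore compared pooled lists and not conditions. The lists held between 19167 and 174397 cDNAs, of which between 906 and 93510 fell in 3′UTRs. The share of cDNAs in 3′UTRs was 53.6% in the TTP-AA list at 1 h and between 3.12% and 18.4% in the other lists. A list holds only sites that passed the peak threshold of the authors, so a gene at 0 cDNAs is listed at 0 and may have had weaker sites. The headers of both 1 h lists carry a mark for peak calling over whole regions that the other headers lack, so time of LPS and mode of peak calling cannot be told apart. All 6 macrophage markers examined (Cd68, Adgre1, Itgam, Csf1r, Lyz2 and Cd14) had exonic cDNAs in the TTP-AA list at 1 h. Counts ran from 3 for Cd68 to 177 for Lyz2. The same markers together had 0 in the TTP-AA lists at 0 h and 4 h. All 17 markers of T cells, B cells, fibroblasts, epithelial cells and neutrophils stood at 0 in every list. These counts report bound RNA and not expression, so a 0 does not show that a cell type was absent. Exonic cDNAs at Zfp36, the gene of TTP, numbered 9 at 0 h, 28 at 1 h and 0 at 4 h in the TTP lists. The TTP-AA lists had 0, 162 and 0. In the TTP lists, the 3′UTR of Zfp36 had 4 cDNAs at 0 h and 21 at 1 h. Per the study's methods, the vectors held only the coding sequence of TTP. Counts in coding sequence cannot separate the transgene from the deficient endogenous locus.

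Nearly all cDNAs of these mRNAs were listed at 1 h of LPS and in 3′UTRs. The TTP-AA list at 1 h held 191 of the 222 sites with 277 cDNAs, of which 272 lay in 3′UTRs, 3 in coding sequence and 2 in an intron. The 3′UTR share was thus 98.2% (95% Wilson interval 95.8 to 99.2). Wild-type TTP at 1 h accounted for 24 sites, whose 28 cDNAs were all in 3′UTRs. Without LPS there were 6 sites of TTP, each with 1 cDNA, and 0 of TTP-AA, and after 4 h a single TTP site with 2 cDNAs was listed, again with 0 of TTP-AA. The lists differed in size, and the TTP-AA list at 1 h held 86497 of all 162273 sites. That is a smaller part than its 191 of the 222 member sites, and the part of list size in these counts was not tested. Shares of the 5 genes are given per 10000 3′UTR cDNAs in order of LPS time, with Wilson intervals. In the TTP lists they were 13.7 (6.30 to 29.9), 29.3 (20.3 to 42.3) and 22.1 (6.06 to 80.1), with overlapping intervals. In the TTP-AA lists they were 0 (0 to 6.39), 29.1 (25.8 to 32.7) and 0 (0 to 38.3). The TTP-AA interval at 0 h lay below that at 1 h, and the interval at 4 h, from 1000 3′UTR cDNAs in all, included it. No antisense cDNA was listed in any of the 5 genes. Intervals here and below cover counting error only, and cDNAs of neighbouring sites are not independent.

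**Figure D1:**
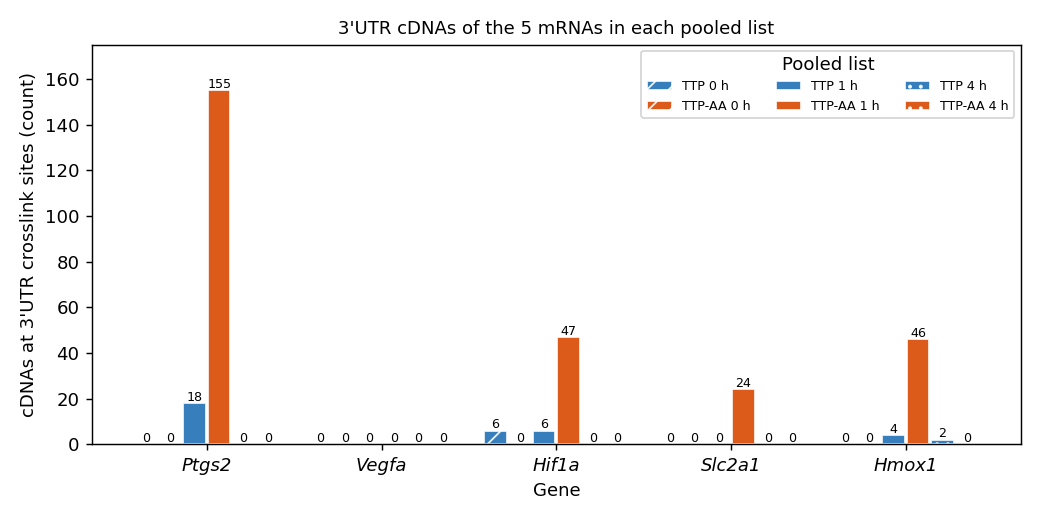
Bars give the cDNAs at 3′UTR crosslink sites (vertical axis, count) of each gene (horizontal axis) in the 6 pooled lists, blue for TTP and orange for TTP-AA, with the number printed above each bar. Ptgs2 had the tallest bar, 155 cDNAs in the TTP-AA list at 1 h, and Vegfa had 0 in every list.

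Ptgs2 (ENSMUSG00000032487.8, chromosome 1, 150100031 to 150108227, plus strand, GRCm38) carried most of these cDNAs. Its 3′UTR spans 150105783 to 150108227 in exon 10 and is 2445 nt long, 67.2% A or U, with 14 AUUUA. At 1 h, TTP was recorded by 18 cDNAs at 14 sites and TTP-AA by 155 cDNAs at 101 sites, and the lists at 0 h and 4 h contained neither. A further 3 TTP-AA cDNAs lay in the last 16 nt of the coding sequence. All TTP cDNAs and most TTP-AA cDNAs lay at opposite ends of the 3′UTR, each of which contains AUUUA. The first end held 7 overlapping or neighbouring AUUUA that start between nt 16 and nt 57 after the stop codon. Within the first 100 nt, TTP had 12 cDNAs (66.7% of its 18, Wilson interval 43.7 to 83.7) and TTP-AA had 78 (50.3% of its 155, 42.5 to 58.1). The other end, nt 2256 to nt 2418, held 6 TTP cDNAs and 52 TTP-AA cDNAs, with AUUUA at nt 2338 and nt 2399 and the polyadenylation signal AAUAAA at nt 2360 and nt 2423. Only TTP-AA had sites between these ends, with 18 cDNAs at nt 1421 to 1501, 5 cDNAs at nt 1739 to 1754 and 2 cDNAs at nt 2065 to 2068. Because the TTP list held 18 cDNAs in all, its 0 in the middle of the 3′UTR has a Wilson interval of 0 to 17.6% for the largest of these stretches, which includes the 11.4% of TTP-AA.

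**Figure D2:**
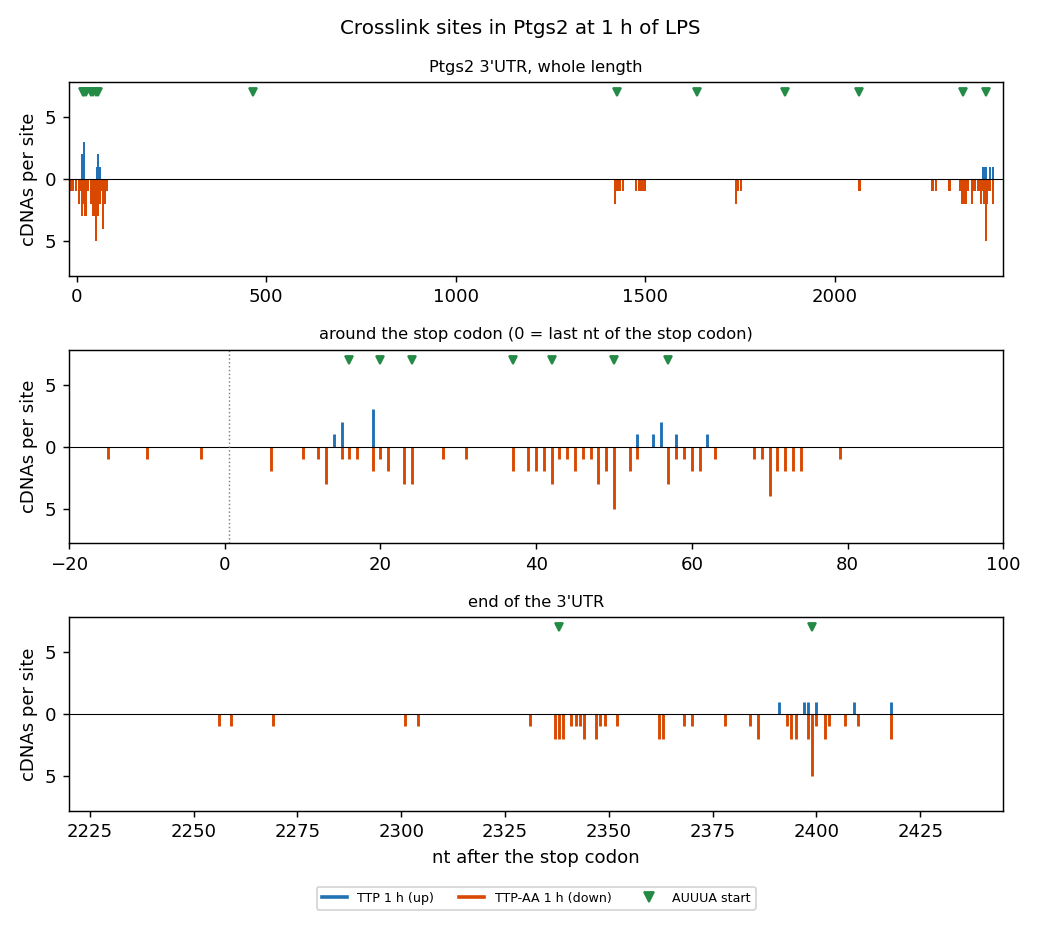
Lines give the cDNAs per site (vertical axis, count) of TTP at 1 h upwards in blue and of TTP-AA at 1 h downwards in orange, against distance from the stop codon of Ptgs2 (horizontal axis, nt), with green triangles at the start of each AUUUA. The top panel shows the whole 2445 nt, where TTP sites appear at nt 14 to 62 and nt 2391 to 2418 and TTP-AA sites also in between, and the lower panels enlarge both ends.

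For each stretch of sites with a minimum of 9 TTP-AA cDNAs, the 30 nt that hold the most cDNAs at 1 h show the letters at the crosslinks. Those of Ptgs2 are printed 5′ to 3′ as RNA with AUUUA in capitals, from the GENCODE M21 transcript on GRCm38.
Ptgs2, chr1:150105827-150105856, plus strand: uaauuAUUUAauAUUUAuacugaauuuuuu
Ptgs2, chr1:150107203-150107232, plus strand: uuuuuAUUUAuaauuauauggaagggcccu
Ptgs2, chr1:150108163-150108192, plus strand: uuguuuauuuuuauacuuAUUUAagaauug

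At 1 h, the first of these windows, nt 45 to 74 after the stop codon, had 41 cDNAs of TTP-AA and 6 of TTP. The second, in the middle of the 3′UTR, had 9 of TTP-AA and 0 of TTP. The third, near the polyadenylation signals, had 21 of TTP-AA and 5 of TTP. Each window contains an AUUUA, flanked by further U residues. The highest site of TTP in Ptgs2 had 3 cDNAs and lay at nt 19, inside the first AUUUA, and the highest sites of TTP-AA had 5 cDNAs and lay on the first letters of the AUUUA at nt 50 and nt 2399. Of the TTP sites, 11 of 14 lay within 5 nt of an AUUUA, and the farthest lay 15 nt away. Of the TTP-AA sites, 58 of 101 lay within 5 nt and the farthest lay 114 nt away.

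Hif1a (ENSMUSG00000021109.13, chromosome 12, 73901375 to 73947530, plus strand) was the only one of the 5 genes with sites before LPS. Its 3′UTR, 73945704 to 73947530 in exon 15, is 1827 nt long, 68.3% A or U, and has 8 AUUUA. TTP had 6 cDNAs at 6 sites at 0 h, 6 cDNAs at 6 sites at 1 h and 0 at 4 h, and TTP-AA had 0 at 0 h, 47 cDNAs at 32 sites at 1 h and 0 at 4 h. Every TTP site at both times lay between nt 309 and nt 325 after the stop codon, within 5 nt of overlapping AUUUA that start at nt 314 and nt 318, and 3 of the 9 positions were the same nucleotide at 0 h and 1 h. These overlapping motifs form UUAUUUAUU, the nonamer regarded as the preferred TTP target, which was found in 7.65% of all 21045 annotated 3′UTRs searched on the sense strand. TTP-AA had 30 of its 47 cDNAs in the same stretch (63.8%, Wilson interval 49.5 to 76.0) and the rest in 3 stretches without a TTP site, with 9 cDNAs at nt 83 to 134, 4 at nt 626 to 641 and 4 at nt 1103 to 1118. The 6 TTP cDNAs of 1 h leave an interval of 0 to 39.0% for each of these stretches. That includes the TTP-AA shares of 19.1%, 8.51% and 8.51%, so equal shares were not excluded at this depth.

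The windows of Hif1a with most cDNAs at 1 h follow, in the same notation.
Hif1a, chr12:73946001-73946030, plus strand: uaaaaugcaccuuuuuAUUUAUUUAuuuuu
Hif1a, chr12:73945786-73945815, plus strand: auuuuuggacacugguggcucagcagucua

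The first window, with the nonamer, had 6 cDNAs of TTP at 0 h and again at 1 h, and 24 of TTP-AA at 1 h. The second held 5 TTP-AA cDNAs at 1 h and no TTP cDNA at any time. It contains a run of U but no whole AUUUA, because it ends on the first letter of an AUUUA that starts at nt 112.

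Hmox1 (ENSMUSG00000005413.8, chromosome 8, 75093621 to 75100589, plus strand) has the shortest 3′UTR of the 5, 75100020 to 75100589 in exon 5, with 570 nt, 53.3% A or U, and a single AUUUA at nt 505. TTP had 4 cDNAs at 4 sites at 1 h, all between nt 510 and nt 519, just after that AUUUA. TTP-AA had 46 cDNAs at 33 sites, 37 of them at nt 475 to 539 (80.4%, Wilson interval 66.8 to 89.3) and 9 at nt 380 to 412. The polyadenylation signal AAUAAA starts at nt 547, so the main stretch lies directly before it. Hmox1 was also the only one of the 5 genes with a site at 4 h, where TTP had 2 cDNAs at nt 516, a position that both proteins also had at 1 h. The windows of Hmox1 are shown because only one of them contains AUUUA.
Hmox1, chr8:75100515-75100544, plus strand: gaaagaauuAUUUAauaguuguaaccuugg
Hmox1, chr8:75100399-75100428, plus strand: uauuucugucuuguuuuuuauuauuucccc

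The window with AUUUA had 26 cDNAs of TTP-AA and 4 of TTP at 1 h and 2 TTP cDNAs at 4 h. The window without it, a U-rich stretch, held 8 TTP-AA cDNAs at 1 h and no TTP cDNA.

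Slc2a1 (ENSMUSG00000028645.11, chromosome 4, 119108711 to 119137983, plus strand) was listed for TTP-AA at 1 h alone. Its 3′UTR, 119136447 to 119137983 in exon 10, has 1537 nt, 50.5% A or U, and 2 AUUUA, at nt 750 and nt 1293. All 24 TTP-AA 3′UTR cDNAs, at 20 sites, lay in one stretch of 76 nt at nt 738 to 813, which includes the first AUUUA and the polyadenylation signal variant AUUAAA at nt 775. No site lay at the second AUUUA. A further 2 TTP-AA cDNAs lay at neighbouring intronic positions, 119108992 and 119108993, in the first intron. The other 5 lists held 0 cDNAs, so no fold is given. The window of Slc2a1 with most cDNAs held 12 of the 24.
Slc2a1, chr4:119137184-119137213, plus strand: uagauggaagauAUUUAuauauuuuuuggu

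Vegfa (ENSMUSG00000023951.17, chromosome 17, 46016993 to 46032369, minus strand) had 0 sites in all 6 lists, and none within 5000 nt downstream of the gene. Its 3′UTR, 46016993 to 46018857 in exon 6, has 1865 nt, 56.8% A or U, and 9 AUUUA, all in its second part from nt 1152 to nt 1779, with UAUUUAU at 3 places and UUAUUUAUU at 1. Its number of AUUUA is nearer to those of Ptgs2 and Hif1a than to those of Hmox1 and Slc2a1, the bound mRNAs with 1 and 2 AUUUA, whereas its A and U content is nearer to those of Hmox1 and Slc2a1. The nonamer of Vegfa, which had no listed site, is shown for comparison with that of Hif1a.
Vegfa, chr17:46017166-46017195, minus strand: uuuguuaucAUUUAUUUAuuggugcuacug

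A 3′UTR with many AUUUA and no site was common. Of the 1803 annotated 3′UTRs with a minimum of 9 AUUUA, 595 had a TTP-AA site at 1 h (33.0%, Wilson interval 30.9 to 35.2), and of the 1610 with UUAUUUAUU, 563 did (35.0%, 32.7 to 37.3), beside 4468 of all 21045 (21.2%, 20.7 to 21.8). These shares include mRNAs that the cells may not have contained. The level of the Vegfa mRNA was not measured in these lists.

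**Figure D3:**
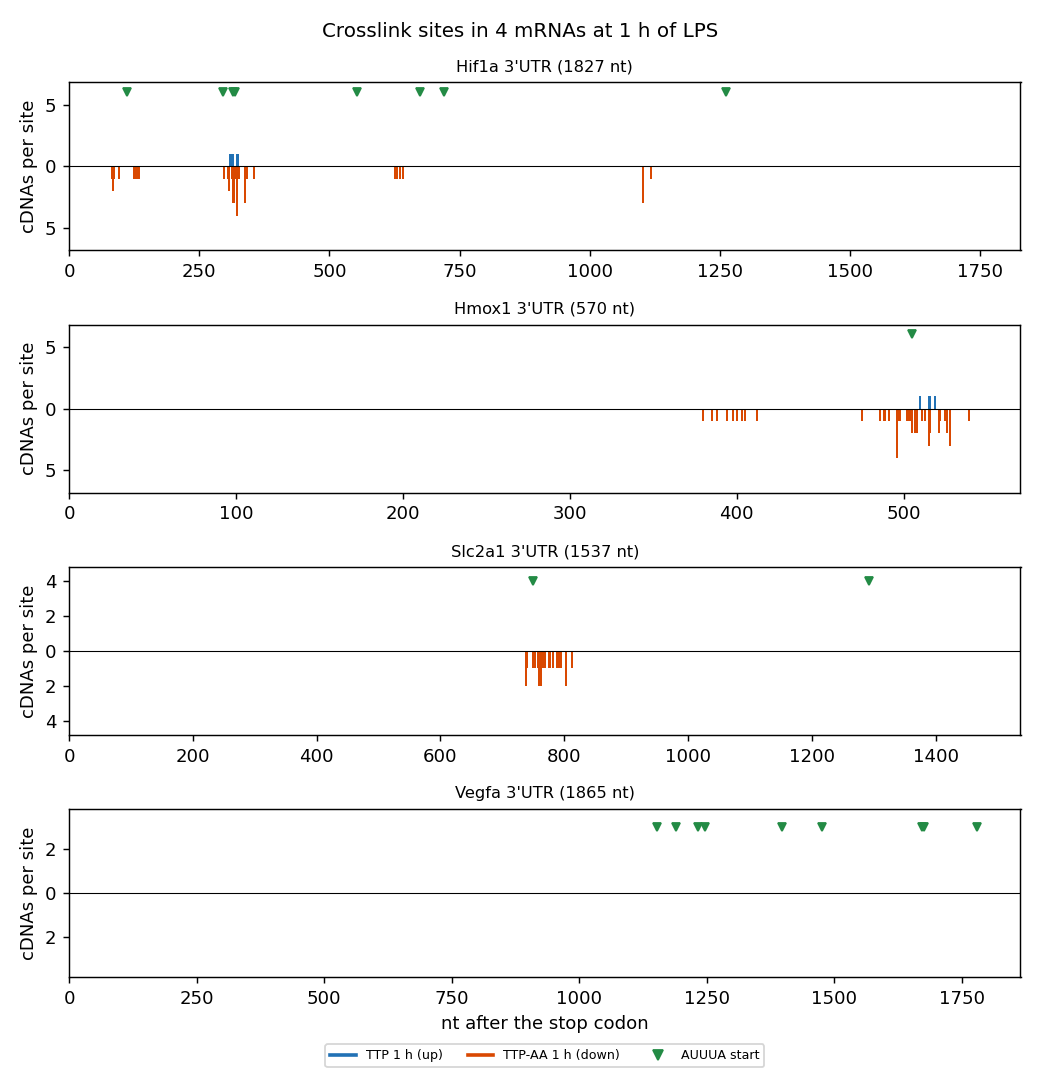
Lines give the cDNAs per site (vertical axis, count) of TTP at 1 h upwards in blue and of TTP-AA at 1 h downwards in orange, against distance from the stop codon (horizontal axis, nt), for Hif1a, Hmox1, Slc2a1 and Vegfa, with green triangles at the start of each AUUUA. TTP sites of Hif1a and Hmox1 sit inside larger TTP-AA stretches, Slc2a1 has TTP-AA sites only, and the 9 AUUUA of Vegfa have none.

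The comparison of TTP-AA with TTP at 1 h asked how loss of the MK2 sites changes binding when MK2 is active. Counts were higher in the TTP-AA list for all 4 bound genes. The ratio of TTP-AA to TTP cDNAs was 8.61 for Ptgs2 (exact 95% interval 5.27 to 14.9), 7.83 for Hif1a (3.34 to 22.4) and 11.5 for Hmox1 (4.20 to 44.0), and Slc2a1 had 24 cDNAs against 0. The lists as wholes differed by a similar amount, 93510 against 9558 3′UTR cDNAs. As a share of all 3′UTR cDNAs, the 5 genes together made up 29.1 per 10000 in the TTP-AA list (Wilson interval 25.8 to 32.7) and 29.3 per 10000 in the TTP list (20.3 to 42.3).

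In the test of each gene against all other 3′UTR cDNAs, 0 of the 4 members tested differed between the 1 h lists after Benjamini-Hochberg adjustment over all genes (two-sided Fisher exact test), and 0 had an unadjusted p under 0.05. Among all 2065 genes tested, 132 differed, or 6.39%, with 41 higher and 91 lower in TTP-AA. The odds ratio of TTP-AA over TTP was 0.88 for Ptgs2 (exact 95% interval 0.538 to 1.52, adjusted p = 0.731 in the Fisher exact test), 0.801 for Hif1a (0.341 to 2.29, adjusted p = 0.731) and 1.18 for Hmox1 (0.429 to 4.50, adjusted p = 1). For Slc2a1 the shares were 2.57 and 0 per 10000, with an adjusted p of 0.490 in the same exact test. The intervals for Hif1a and Hmox1 include differences of 2-fold, so equal shares were not shown. Slc2a1 passed the minimum of 10 cDNAs through the TTP-AA list alone. With 0 TTP cDNAs, its excess in TTP-AA was the most extreme that its total allowed. The unadjusted p was still 0.162 in the Fisher exact test, so such an excess could not have been called.

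The result depends on what a gene is compared with. Against all cDNAs of a list, which include the many TTP cDNAs outside 3′UTRs, all 4 genes were higher in the TTP-AA list, with odds ratios of 4.90 for Ptgs2, 4.46 for Hif1a and 6.55 for Hmox1 and adjusted p-values from 3.43e-13 to 0.000226 in the Fisher exact test. By that reference 85.4% of all 2065 genes differed, 1754 of them higher and 9 lower, so the 4 genes moved as most 3′UTRs did. Between 1 h and 0 h of TTP-AA, 3 of the 4 members tested (Ptgs2, Hif1a and Hmox1) were higher at 1 h by this reference, where 24.5% of all genes tested differed and 22.7% were higher. These members had 0 cDNAs at 0 h and passed the minimum of 10 through the 1 h list alone, so they had to be higher there.

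**Figure D4:**
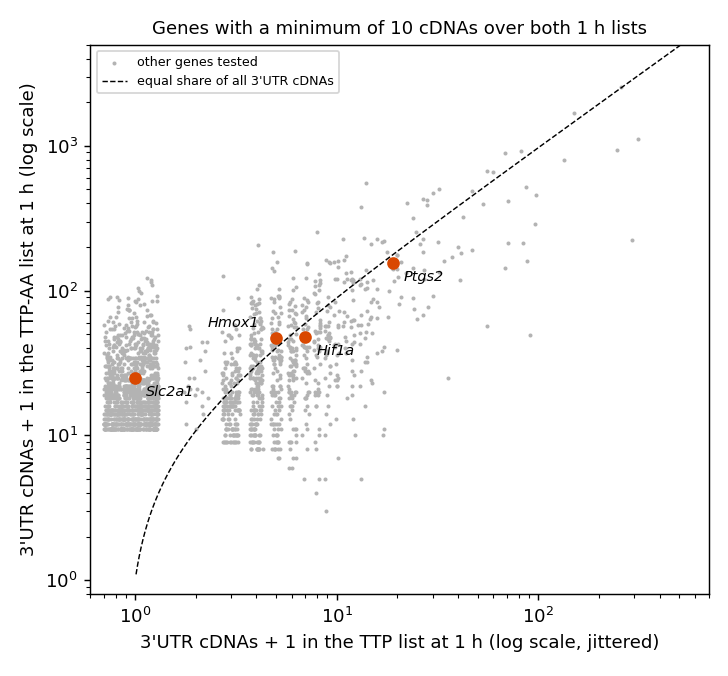
Each point is 1 of the 2065 genes tested at 1 h, with 3′UTR cDNAs + 1 in the TTP list (horizontal axis, log scale, jittered for the other genes) and in the TTP-AA list (vertical axis, log scale), and the dashed line marks an equal share of all 3′UTR cDNAs. Ptgs2, Hif1a and Hmox1 (orange) lie close to the line, and Slc2a1 lies among the genes with 0 TTP cDNAs.

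By total counts, Ptgs2 stood high in both lists, at rank 63 of the 1295 genes with a 3′UTR site of TTP at 1 h and at rank 63 of 4468 for TTP-AA. Hif1a held rank 366, Hmox1 rank 377 and Slc2a1 rank 840 for TTP-AA, where the median gene had 8 cDNAs. Per length of 3′UTR the order changed. Hmox1 had 80.7 TTP-AA cDNAs per 1000 nt (exact Poisson interval 59.1 to 108), Ptgs2 63.4 (53.8 to 74.2), Hif1a 25.7 (18.9 to 34.2) and Slc2a1 15.6 (10.0 to 23.2), beside a median of 6.09 over the 4468 genes. The intervals of Hmox1 and Ptgs2 overlapped, as did those of Hif1a and Slc2a1, and the first pair lay above the second. In the TTP list at 1 h, Ptgs2 had 7.36 cDNAs per 1000 nt (4.36 to 11.6), Hmox1 7.02 (1.91 to 18.0) and Hif1a 3.28 (1.21 to 7.15), with overlapping intervals.

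The comparison of 1 h with 0 h asked what LPS changes for each protein. In the TTP lists, Ptgs2 rose from 0 to 18.8 per 10000 3′UTR cDNAs (0 and 18 cDNAs, adjusted p = 0.00647 in the two-sided Fisher exact test), whereas Hif1a stood at 13.7 and 6.28 per 10000 (6 cDNAs each, odds ratio 0.457, exact interval 0.122 to 1.71, adjusted p = 0.309). Thus 1 of the 2 members tested was called, where 47.5% of all 276 genes tested were called and 23.9% were called as higher at 1 h. In the TTP-AA lists, Ptgs2 rose from 0 to 16.6 per 10000 (0 and 155 cDNAs, adjusted p = 0.00237 in the Fisher exact test), and Hif1a, Hmox1 and Slc2a1, also at 0 before LPS, had adjusted p-values of 0.382, 0.382 and 0.798 in that test. Thus 1 of the 4 members tested was called, where 12.4% of all 2052 genes tested were called and 2.73% were called as higher. All members at 0 before LPS passed the minimum through the 1 h list alone. For Hif1a, Hmox1 and Slc2a1 in TTP-AA, 0 cDNAs at 0 h was already the most extreme rise that their totals allowed. Their unadjusted p-values were still 0.116, 0.114 and 0.398 in the Fisher exact test, so a rise could not have been called. When sites with 1 cDNA were left out, Ptgs2 had too few cDNAs for a test in TTP and was no longer called in TTP-AA (adjusted p = 0.118 in the Fisher exact test). More Ptgs2 mRNA and more binding per mRNA cannot be told apart in these lists. Nor can either be told apart from the mode of peak calling, since the 1 h headers carry a mark that the 0 h headers lack. Between TTP-AA and TTP at 0 h and at 4 h, 0 members reached 10 cDNAs, so none was tested, where 30.7% of 241 genes and 68% of 25 genes differed.

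Taken over the 5 mRNAs, the share of cDNAs close to AUUUA at 1 h had an interval above that of all 3′UTR cDNAs for both proteins, a difference that was not tested and that rested mainly on Ptgs2, with 155 of the 272 TTP-AA cDNAs. At 1 h, all 28 TTP cDNAs had a whole AUUUA within 20 nt (100%, Wilson interval 87.9 to 100), beside 43.4% of all 3′UTR cDNAs in that list (42.4 to 44.4). For TTP-AA, 199 of 272 did (73.2%, 67.6 to 78.1), beside 40.7% (40.4 to 41.1). By gene the TTP-AA share was 82.6% for Ptgs2 (75.8 to 87.7), 63.8% for Hif1a (49.5 to 76.0), 60.9% for Hmox1 (46.5 to 73.6) and 54.2% for Slc2a1 (35.1 to 72.1). The interval of Hif1a overlapped those of the other 3 genes, and that of Slc2a1 included the share of all 3′UTR cDNAs. Within 10 nt, AUUUA was found for 14 of 46 cDNAs of Hmox1 and 6 of 24 of Slc2a1, with intervals (19.1 to 44.8 and 12.0 to 44.9) that included the 29.4% of all 3′UTR cDNAs. All 6 TTP cDNAs of 0 h and both of 4 h also had AUUUA within 20 nt. AUUUA occurs in 65.2% of all annotated 3′UTRs, and its number per 3′UTR differs, so the shares also depend on how many AUUUA a 3′UTR offers. The 5 genes were chosen as mRNAs with AU-rich elements, so their shares are not independent of that choice.

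**Figure D5:**
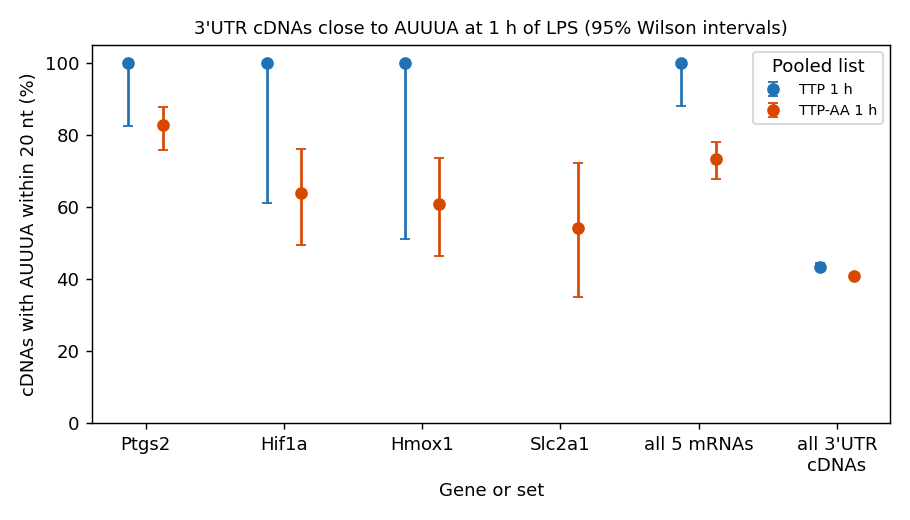
Points give the share of 3′UTR cDNAs with AUUUA within 20 nt (vertical axis, percent) for each gene, for the 5 mRNAs together and for all 3′UTR cDNAs (horizontal axis) at 1 h, blue for TTP and orange for TTP-AA, with bars for 95% Wilson intervals. The TTP points of Ptgs2, Hif1a and Hmox1 sit at 100%, the TTP-AA points between 54.2% and 82.6%, and the points for all 3′UTR cDNAs at 43.4% and 40.7%.

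TTP sites in these mRNAs lay where TTP-AA sites lay. All 24 TTP 3′UTR sites at 1 h had a TTP-AA site within 15 nt (100%, Wilson interval 86.2 to 100), beside 76.6% of all 6775 TTP 3′UTR sites (75.6 to 77.6), and 12 of the 24 shared the exact nucleotide. In the other direction, 89 of the 186 TTP-AA 3′UTR sites had a TTP site within 15 nt (47.8%, 40.8 to 55.0), beside 21.5% of all 61183 (21.2 to 21.8). By gene this was 55 of 101 in Ptgs2, 16 of 32 in Hif1a, 18 of 33 in Hmox1 and 0 of 20 in Slc2a1. Shares of this kind rise with the number of sites in a 3′UTR, and the part of that number was not tested.

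The crosslinked nucleotide was U at 103 of the 186 TTP-AA sites in these 3′UTRs (55.4%, Wilson interval 48.2 to 62.3), beside 61.6% of all TTP-AA 3′UTR sites at 1 h. A was next with 54 sites, of which 37 lay in Ptgs2, and G and C had 15 and 14. G was found at 7 of 33 sites in Hmox1 and 4 of 101 in Ptgs2. Most sites rested on a single cDNA, as most 3′UTR sites of both 1 h lists did. Such sites were 124 of the 186 TTP-AA sites (66.7%), beside 77.3% of all TTP-AA 3′UTR sites at 1 h. For TTP at 1 h they were 21 of the 24 sites (87.5%), beside 82.0% of all TTP 3′UTR sites. The highest count at any site in these mRNAs was 5, where the highest 3′UTR site of the TTP-AA list had 96.

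Other genes of the same pathways were counted over 7 lists with 107 genes, which do not contain the 5 members. At 1 h, 42 of the 107 had a TTP-AA 3′UTR site and 17 a TTP site, and 62 had no 3′UTR site in any list. Of the 27 with a minimum of 10 cDNAs, 0 were higher and 3 were lower in TTP-AA by share of 3′UTR cDNAs (Fisher exact test, Benjamini-Hochberg adjustment over all genes), beside 1.99% and 4.41% of all genes tested. The 3 were Hk2, the hexokinase that starts glycolysis, Ptges3, known as prostaglandin E synthase 3 and as the cochaperone p23, and Fth1, the ferritin heavy chain that stores iron.

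Among 14 genes of the HIF and oxygen-sensing machinery, 7 had a TTP-AA site at 1 h. Ep300, a coactivator of HIF-1, had 25 TTP-AA and 0 TTP cDNAs, Rbx1, of the ubiquitin ligase that degrades HIF-1α, had 13 and 2, and Cul2, the scaffold of that ligase, had 9 and 0. Hif1a, with 47 and 6, had more than any of these. Among 21 hypoxia-response genes, 8 had a TTP-AA site, and Cited2, a HIF-1 antagonist, had 28 TTP-AA and 0 TTP cDNAs and Mxi1, a MYC antagonist, 20 and 7. Cul2 had too few cDNAs for the test, and the other 4 genes of these lists named here were not called (adjusted p-values from 0.107 to 0.741 in the Fisher exact test).

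Of 18 glycolysis enzymes, 12 had a TTP-AA site at 1 h. Hk2 had 46 TTP-AA and 13 TTP cDNAs (odds ratio 0.361, adjusted p = 0.0417 in the Fisher exact test), the aldolase gene Aldoa 36 and 8, and the lactate dehydrogenase gene Ldha 28 and 3. Among 10 other glucose transporter genes Slc2a3, which encodes GLUT3, was the one with a site, with 7 TTP-AA cDNAs and 0 TTP cDNAs, and the other 9 were listed at 0.

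In the prostaglandin and eicosanoid pathway, 5 of 18 genes had a TTP-AA site. Upstream of COX-2, Pla2g4a, the cytosolic phospholipase A2 that releases arachidonic acid, had 64 TTP-AA and 0 TTP cDNAs (adjusted p = 0.0588 in the Fisher exact test). Downstream of it, the prostaglandin E2 receptor gene Ptger4 had 21 and 0. Alox5, which feeds arachidonic acid into leukotrienes, had 30 and 2, and Ptges3 had 5 and 5 (odds ratio 0.102, adjusted p = 0.0239 in the exact test). Ptgs2, with 155 and 18, thus had the most cDNAs of the pathway.

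Of 9 VEGF ligands and receptors other than Vegfa, 1 had a TTP-AA site at 1 h, the co-receptor gene Nrp2, with 40 TTP-AA and 6 TTP cDNAs, and 7 had no site in any list. Among 17 heme, iron and NRF2 genes, 8 had a TTP-AA site. Nfe2l2, which encodes NRF2, an activator of Hmox1, had 132 TTP-AA and 10 TTP cDNAs, Fth1 had 88 and 23 (odds ratio 0.391, adjusted p = 0.00641 in the Fisher exact test), and the thioredoxin reductase gene Txnrd1 82 and 14. Fth1, Aldoa and Ldha have near-identical copies elsewhere in the genome, so their counts from unique reads are uncertain.

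The genes most like each member over the 6 lists were found by the summed absolute difference of their shares of 3′UTR cDNAs, in cDNAs per 10000. For Ptgs2 these were Hspa5 (difference 1.71, with 18 TTP and 139 TTP-AA cDNAs at 1 h and 0 in the other lists) and Arpc2 (7.03). For Hif1a they were Rin2 (1.07, with 6 TTP cDNAs at 0 h and 6 at 1 h) and Prps1 (3.55). For Hmox1 they were Stap1 (1.50) and Zmynd8 (1.90), both with 2 TTP cDNAs at 4 h. For Slc2a1 they were Aqr and Bnip2 (0), each with the same 24 TTP-AA cDNAs at 1 h. Ties were broken by the alphabetical order of gene symbols. Since 45 genes, Slc2a1 included, had 24 TTP-AA 3′UTR cDNAs at 1 h, other genes may be as much like it.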

How the data were processed

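The data were 6 lists of iCLIP crosslink sites from 15 samples, 1 list per group. The value of each deposited site was a score, an integer that counts unique cDNAs and is negative on the minus strand. Per the study's methods and the file headers, the authors sorted reads by barcode, collapsed PCR duplicates by random bases, mapped unique reads with Bowtie to mm10 with Ensembl 75 genes, took the nucleotide before each read, pooled the libraries of a group and called peaks with iCount at a false-discovery rate under 0.05 (100 permutations, 15 nt neighbourhood). Cross-library spread is lost in this step, and sites under the threshold are absent. The submitters' processing notes name GRCm38.

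Each site was matched to GENCODE M21 (GRCm38, the assembly of mm10) by scripts in Python 3.11.15 (numpy 2.4.6, scipy 1.17.1, matplotlib 3.10.9), in the order 3′UTR, coding sequence, 5′UTR, non-coding exon, intron. M21 is later than the annotation of the authors. Coordinates are 1-based, and positions in a 3′UTR are counted from 1 after the stop codon on the gene's transcript whose 3′UTR is longest. Sites up to 50 nt apart were joined into stretches, a distance chosen after the sites were seen. Motifs searched on the transcript strand, overlaps counted, were AUUUA, which lies inside the longer UAUUUAU and the still longer UUAUUUAUU, and the polyadenylation signal AAUAAA or its variant AUUAAA.

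Each gene with a minimum of 10 3′UTR cDNAs over 2 lists was tested against all other 3′UTR cDNAs by a two-sided Fisher exact test, with Benjamini-Hochberg adjustment over all genes and a threshold of 0.05. Shares have Wilson 95% intervals. Alternatives were another reference, minimum, site count or region order, other motif windows and other distances. The members and gene lists were chosen with earlier results of these data known. Besides the 5 members, the text names the 3 genes of each list with most 1 h cDNAs, any further list gene past the threshold at 1 h, and the 2 genes most like each member, of which 1 list gene is not reported here.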

Additional observations from a re-analysis of the deposited data

Results flagged for a closer look

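One sense-strand site with 4 cDNAs was listed for TTP-AA at 4 h on chromosome 8 at position 75102767, 2178 nt downstream of the annotated end of Hmox1 and outside any gene, which drew attention because it lies outside the regions compared and no other list had a site within 5000 nt downstream of Hmox1.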

How the results depend on the processing

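No paired analysis was possible because each group was deposited as 1 pooled list whose values carry no replicate numbers, and for the same reason no library could be left out. Of 149 alternative values, 103 kept their direction and side of the threshold or, for counts and shares, stayed close to the value reported. With all cDNAs of a list as the reference, 4 members instead of 0 were called between the 1 h lists, and 3 instead of 1 between 1 h and 0 h in TTP-AA. The odds ratios of Ptgs2 and Hif1a at 1 h turned from under 1 to 4.90 and 4.46. Without the ribosomal RNA locus on chromosome 17 in that reference the counts were again 4 and 3, and the odds ratios 3.91 and 3.56. With a minimum of 5 cDNAs, 1 member, Hif1a, was called between the 0 h lists, where 156 of all 570 genes tested were called. Hif1a had 6 TTP and 0 TTP-AA cDNAs there and passed that minimum through the TTP list alone. With sites of at least 2 cDNAs, 0 members were called between 1 h and 0 h, in TTP and in TTP-AA, the odds ratio of Ptgs2 at 1 h was 1.16, that of Hif1a could not be computed because 0 TTP cDNAs were left, and the 3′UTR share for TTP-AA at 1 h was 100%. Fewer sites enter that setting by construction. With each site counted once, the odds ratio of Hmox1 at 1 h was 0.914. The AUUUA share at 1 h was 85.7% for TTP and 52.9% for TTP-AA within 10 nt, 88.2% for TTP-AA within 50 nt, 66.1% for TTP-AA with each site counted once, and 64.3% and 46.3% for UAUUUAU. The 2 TTP cDNAs at 4 h had 0% within 10 nt and 0% for UAUUUAU. The genes called at 1 h numbered 132 in the main analysis, 1763 against all cDNAs, 1644 without the ribosomal RNA locus and 64 with sites of at least 2 cDNAs. The causes of the other shifts were not tested. Low depth limits Hif1a, Hmox1 and Slc2a1 in the TTP lists, where each had 6 cDNAs or fewer.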
